A study of Mus musculus with 2 samples.

Results

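Ependymal cells were 221 of 25287 cell barcodes in single-cell RNA sequencing of brains from female mice that express human APOE3 (E3) or human APOE4 (E4) in place of mouse Apoe. They were chosen by measured values: a barcode needed 2000 to 50000 UMIs (unique molecular identifiers, the counted RNA molecules), at most 30% of them mitochondrial, and at least 8 UMIs in all of Ccdc153, Tmem212, Rsph1 and Foxj1. It also had to hold under 5 UMIs of the choroid plexus markers Folr1, Kl and Clic6, under 5 of the microglial C1qa, C1qb and C1qc, under 3 of the endothelial Cldn5 and under 3 of the oligodendrocyte markers Mog and Mag. Of 19867 barcodes within the UMI and mitochondrial limits, 109 of 8925 in the E3 library passed and 112 of 10942 in the E4 library.

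All mice were homozygous for a targeted human allele under the mouse Apoe promoter and were 11 to 12 months old. Right hemispheres without brainstem and cerebellum from 3 mice of a genotype were pooled, digested with warm enzymes and loaded as 1 library of 3′ tags, so there was 1 library per genotype. No test between genotypes was possible: genotype, pool, library and the processing run of each library cannot be told apart, and the intervals given below are 95% intervals that cover counting error only. The counts are of mouse genes, so human APOE transcripts could be counted only where their reads were assigned to mouse Apoe, and the Apoe counts do not check the E3 and E4 labels.

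Ependymal cells form the ciliated lining of the brain ventricles, where the beat of their motile cilia moves cerebrospinal fluid. The core of such a cilium is the axoneme, a ring of doublet microtubules around a central pair, driven by rows of dynein motors and held in register by radial spokes and the nexin-dynein regulatory complex. Foxj1 is the transcription factor that switches on motile cilia genes, and it works with RFX factors that bind a promoter element called the X-box.

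The X-box is shown here because it is a sequence shared by many of the cilia genes described below that played no part in choosing the cells. RefSeq promoters (GRCm38.p6, 250 bases before to 50 after a start site) were matched by symbol for 109 of 134 motile cilia genes and searched on both strands for GTNNCC followed by 0 to 3 bases and NGNAAC. A match was present for 44 of the 109 genes (40.4%), against 533 of 5708 genes measured in these cells (9.34%) and 1606 of all 27025 genes with a promoter (5.94%). For cilia transport genes it was 17 of 50 (34%), and for nuclear genes of oxidative phosphorylation 4 of 69 (5.80%). The shorter motif GTTGCC, a part of the X-box that can lie within a match, was present for 45.0% of the motile cilia genes and 14.1% of all genes. The FOXJ1 site TGTTTAC was present for 6.42% and 4.05%. Of the genes with a match, the most abundant dynein light chain (Dynlrb2), a microtubule inner protein (Fam183b), a central pair protein (Hydin), a central pair kinesin with a lower level in the E4 library (Kif9) and the selecting gene Ccdc153 carried the stretches below, written 5′ to 3′ on the strand of the gene with the match in capitals. They lie at chr8:116504944-116504996 (plus strand), chr11:58801961-58801996 (minus strand), chr8:110266936-110266976 (plus strand), chr9:110476947-110476993 (plus strand) and chr9:44240524-44240575 (plus strand), and the matches ended 38, 3, 7, 13 and 121 bases before the start site.
Dynlrb2: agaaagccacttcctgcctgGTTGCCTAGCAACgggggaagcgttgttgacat
Fam183b: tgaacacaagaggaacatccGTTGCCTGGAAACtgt
Hydin: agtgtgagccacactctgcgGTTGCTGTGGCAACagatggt
Kif9: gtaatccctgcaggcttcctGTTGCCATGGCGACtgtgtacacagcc
Ccdc153: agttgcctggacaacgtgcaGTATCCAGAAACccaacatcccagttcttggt
In Hydin and Kif9 the element was found on the opposite strand, and in Fam183b on both strands. A match is a description of letters in the window and not of binding.

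The selected cells made up 1.22% (1.004 to 1.471, exact binomial interval) of barcodes within limits in the E3 library and 1.02% (0.844 to 1.23) in the E4 library, and these intervals overlapped. They held a median of 9010 UMIs and 3327 genes in E3 and 8544.5 UMIs and 3281 genes in E4, 1223493 and 1270834 UMIs in all. Ccdc153, a subunit of the nexin-dynein regulatory complex, was detected in 109 of 109 E3 cells and 110 of 112 E4 cells. Tmem212 was detected in 106 and 110 cells, the radial spoke gene Rsph1 in 108 and 112, and Foxj1 in 100 and 106. The sum of these selecting genes ran from 8 through a median of 56 to 362 UMIs per E3 cell and from 8 through 51 to 290 per E4 cell. Near the threshold, 11 barcodes in each library had a sum of 4 to 7, and 7 in E3 and 3 in E4 had a sum of 8 to 11. Motile cilia genes other than the selecting genes stood at 8982 and 7817 CPM (the UMIs of a gene per 1000000 UMIs of the summed cells) just below the threshold, and at 20630 and 8190 CPM just above it. Of the 3 E4 barcodes just above it, 2 were the Ttr-rich cells described below, in which these genes stood at 6571 CPM. The 2 libraries shared 46 barcodes, none of them ependymal.

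The limits on other cell types removed many barcodes that met the marker sum. Within the UMI and mitochondrial limits 216 E3 and 241 E4 barcodes had at least 8 UMIs of the selecting genes, and Folr1, Kl and Clic6 left out 98 and 106 of them. Among these, 49 and 60 had no UMI of Ccdc153 or Tmem212, whereas 48 and 35 had at least 8 UMIs of this pair and motile cilia genes at 27822 and 30100 CPM, beside the 29676 and 28109 CPM of the selected cells. The 48 and 35 barcodes were deeper, with medians of 28262.5 and 25775 UMIs, and their Ttr was 5181 and 289 CPM, beside 285 CPM in the selected E3 cells. Folr1 itself was detected in 64.2% and 68.8% of the selected cells, at 101 and 122 CPM. In astrocytes and microglia it stood at 2.97 CPM or less. How many of the 48 and 35 barcodes were ependymal cells was not tested. In cells of the choroid plexus class, taken as barcodes with at least 8 UMIs of Folr1, Kl and Clic6, Rsph1 stood at 240 and 226 CPM and Foxj1 at 26.6 and 31.9 CPM. Folr1 stood there at 1085 and 1162 CPM. The class held 2 and 7 UMIs of Ccdc153 and 1 and 4 of Tmem212 in all, so barcodes rich in that pair were not part of it. This describes the barcodes taken and is not read as a trait of choroid plexus.

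A few of the 221 cells stood apart from the rest. In the E4 library 2 cells held 564 and 1557 UMIs of Ttr, the thyroxine carrier that choroid plexus makes in great amounts, of 14172 and 13983 UMIs in all. Both had 8 UMIs of Rsph1, none of Ccdc153 or Foxj1, and at most 1 of Tmem212, and their nuclear oxidative phosphorylation genes stood at 130812 CPM. Another E4 cell of 42942 UMIs held 656 of the 805 UMIs of 6330403K07Rik together with 213 of Ptn, 44 of Col23a1 and 11 of Rax, a homeobox gene that marks tanycytes, the elongated glia of the third ventricle floor. Cells with at least 5 UMIs of Sspo, the gene of SCO-spondin secreted by the subcommissural organ, were 3 in E3 and 1 in E4. Cells with at least 10 UMIs of the astrocyte-rich genes Aldoc, Slc1a2 and Mfge8 were 22 in E3 and 17 in E4, and their motile cilia genes stood at 25461 and 24453 CPM against 31589 and 30142 CPM in the cells that stood apart in none of these ways. These kinds of cell were chosen after their values were seen. Of 53 named genes that were 1.5-fold apart between the libraries with all cells, 31 were still so without the cells of all 3 kinds (rich in Ttr or 6330403K07Rik, with Sspo, or rich in the astrocyte genes), 11 kept their sign below 1.5-fold, 1 took the other sign and 10 had under 50 UMIs.

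Markers of other cell types were then examined in the selected cells. Ttr was detected in 100 cells of each library, and without the cells rich in Ttr or 6330403K07Rik its log2 ratio of E4 to E3 was 0.14 instead of 2.79. Microglia of these libraries, which should lack Ttr, held 553 and 591 CPM of it, so the 285 CPM of E3 ependymal cells is read as background. The listed microglial genes summed to 199 and 207 CPM in ependymal cells against 50881 and 50619 CPM in microglia, and the oligodendrocyte genes to 433 and 386 CPM. The astrocyte list summed to 3612 and 3644 CPM against 28678 and 29625 CPM in astrocytes. In microglia it summed to 2836 and 3196 CPM, so the ependymal sum was not far above that of a class that should lack these genes. Among its members Aqp4, the water channel that ependyma shares with astrocytes, stood at 602 and 578 CPM in ependymal cells. The endothelial list summed to 2077 and 2056 CPM in ependymal cells. That was above its 631 and 686 CPM in astrocytes and 592 and 619 CPM in microglia, and below its 3366 and 4104 CPM in choroid plexus. Most of the ependymal sum was Pltp, a phospholipid transfer protein gene, at 1676 and 1614 CPM and Bsg (basigin) at 354 and 364 CPM. Pecam1 was at 1 UMI in E3 and 0 in E4, Cldn5, limited by the selection, at 2.45 and 7.08 CPM and Flt1 at 1.63 and 10.2 CPM. The list of neuroblast and neuron genes summed to 779 and 837 CPM, against 196 and 222 CPM in astrocytes, with Cd24a, a surface protein gene, at 514 and 570 CPM and Meg3, a noncoding RNA, at 140 and 183 CPM. Rbfox3 (NeuN) had no UMI in either library, Snap25 had 4.90 and 1.57 CPM, and Sox11 passed 1.5-fold downward, at 38.4 and 22.0 CPM. The smooth muscle genes Acta2 and Tagln are described further below.

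Motile cilia genes stood higher in the ependymal cells than in the other classes, in part by the way the classes were chosen. The 7 lists of axonemal parts, 134 genes in the files of which 121 reached 50 UMIs over both libraries, summed to 33442 CPM in E3 and 31384 CPM in E4 ependymal cells. The same lists summed to 715 and 754 CPM in astrocytes, 384 and 386 CPM in microglia, and 4220 and 4212 CPM in choroid plexus cells, which carry cilia of their own. Of the 121 genes, 103 stood more than 10 times above astrocytes in both libraries, 111 above microglia and 67 above choroid plexus. The ependymal cells were chosen on 4 genes of this program, and the astrocyte class allowed at most 1 UMI of ependymal markers. Part of the gap, and of the counts above 10 times, was thus set by selection, and these levels are a description. Without the selecting genes the 7 lists summed to 29676 and 28109 CPM in ependymal cells. The choroid plexus class held almost no UMIs of Ccdc153 or Tmem212, so its levels are those of barcodes nearly all without this pair. Per cell, the lists took from 1.20% through a median of 3.41% to 4.72% of UMIs in E3 and from 0.56% through 3.20% to 4.64% in E4.

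**Figure D1:**
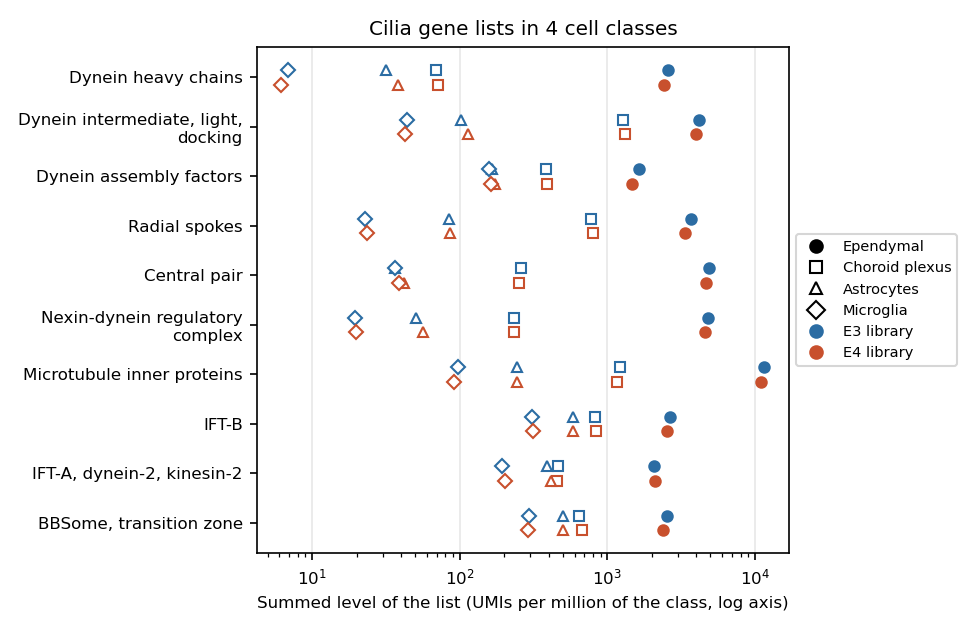
Summed level of each cilia gene list (rows) in CPM on a log axis, in ependymal cells, choroid plexus cells, astrocytes and microglia of the E3 and E4 libraries, 1 point per class and library. All ependymal sums lie to the right of the other classes, the dynein heavy chains reaching 2597 and 2416 against 31.7 and 37.9 in astrocytes, while the transport lists at the bottom lie closer together.

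The dynein motors were led by the inner arm heavy chain gene Dnah6 at 585 and 482 CPM in E3 and E4, followed by Dnah5 at 369 and 392, Dnah12 at 370 and 360 and Dnah9 at 284 and 271. These are counts of 3′ tags, and how well each gene is captured was not measured, so the order of genes is one of counted UMIs. The light chain gene Dynlrb2 stood at 1171 and 1042 CPM. The calmodulin-like gene Calml4 stood at 652 and 664 CPM. Of the 13 measured dynein heavy chains 12 were over 10 times the astrocyte level in both libraries.

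Within the stalk structures, the central pair was represented by Ak7 (703 and 721 CPM), Cfap54 (670 and 653 CPM), Spef2 (486 and 507 CPM) and Hydin (379 and 331 CPM). Radial spoke genes were led by Rsph1 at 1384 and 1100 CPM, of which the log2 ratio was −0.33 (−0.43 to −0.23), and by Rsph4a at 424 and 394 CPM. In the nexin-dynein regulatory complex, Ccdc153 stood at 2383 and 2175 CPM, Ccdc39 at 450 and 404 CPM, and Iqca at 357 and 409 CPM. The microtubule inner proteins were the largest sum, 11618 and 10952 CPM, with Fam183b at 1083 and 980 CPM, 1110017D15Rik at 966 and 848 CPM, Meig1 at 931 and 819 CPM and Tppp3 at 817 and 714 CPM. Tmem212, the remaining selecting gene, stood at 2202 and 2025 CPM. Among the most abundant of these genes the E3 library was slightly higher, while Ak7, Spef2, Dnah5, Calml4 and Iqca were as high or higher in E4.

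Among regulators, Foxj1 had 499 CPM (460 to 540) in the E3 cells and 500 CPM (462 to 540) in the E4 cells, a log2 ratio of 0.0032 (−0.16 to 0.17). Rfx3 stood at 123 and 109 CPM and Myb, a factor of early multiciliated differentiation, at 119 and 160 CPM. Of 15 measured regulators 9 were higher and 6 lower in E4. None of them was 1.5-fold apart with an interval that left out 1. Mcidas, which acts early in the making of multiciliated cells, had no UMI in either library, which allows up to 3.02 CPM in E3 and 2.90 CPM in E4 by the upper ends of the exact Poisson intervals.

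The transport machinery, by which cargo reaches the cilium and leaves it, separated ependymal cells far less from other classes. Genes of the intraflagellar transport complexes, their motors, the BBSome and the transition zone summed to 7279 and 6995 CPM, against 1475 and 1509 CPM in astrocytes. Only 5 of 51 measured members were more than 10 times above astrocytes in both libraries. Tmem107 of the transition zone stood at 478 and 434 CPM, Ift20 at 349 and 360 CPM, Ift43 at 346 and 343 CPM and the transition zone scaffold Cep290 at 338 and 325 CPM.

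The E4 and E3 libraries were then compared gene by gene. Over all 7119 genes with at least 50 UMIs the median log2 ratio was −0.0075, and 224 genes (3.15%) were at least 1.5-fold higher and 279 (3.92%) at least 1.5-fold lower in E4. A ratio of 1.5-fold in either direction with a counting interval that left out 1 was met by 308 genes (4.33%). Below, genes that met this are said to have passed it, which is a matter of counting only and no test of genotype.

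**Figure D2:**
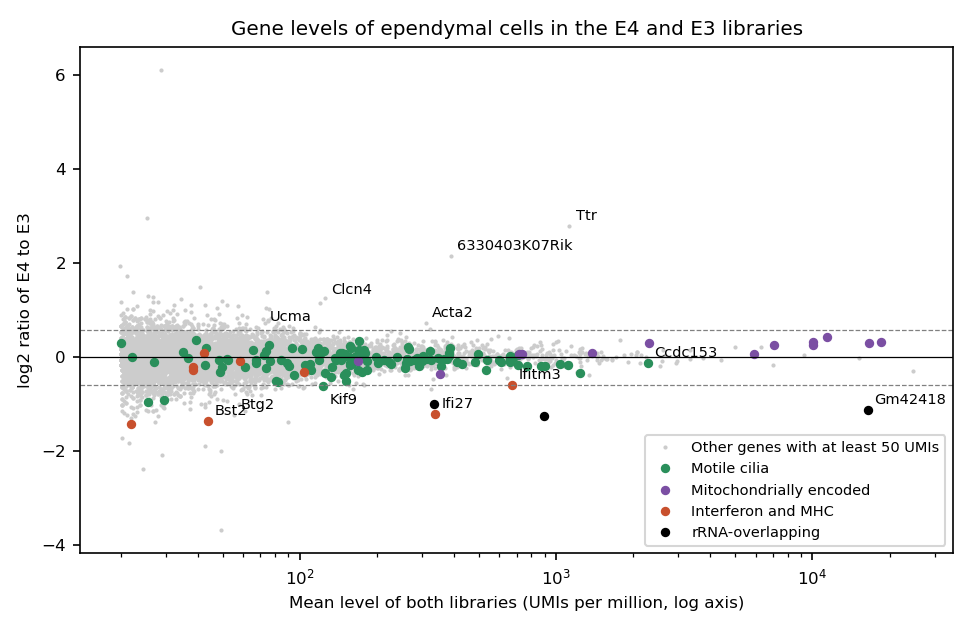
Log2 ratio of E4 to E3 in ependymal cells (vertical axis) against the mean level of both libraries in CPM (log axis), 1 point per gene with at least 50 UMIs, with gene groups in colour and dashed lines at 1.5-fold. Motile cilia genes lie close to 0, mitochondrially encoded genes mostly above it, and Ifi27, Ifitm3 and Bst2 below the lower dashed line.

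Motile cilia genes were nearly level between the libraries. Of 121 measured members 36 exceeded E3 and 85 fell short of it in the E4 library, and their median log2 ratio was −0.063 beside −0.0075 over all genes, and without the 3 cells rich in Ttr or 6330403K07Rik the median was −0.026. None passed 1.5-fold in the upward direction and 3 did downward, against 4.33% of all genes in either direction. The level of Kif9, a kinesin of the central pair, was 149 CPM in the E3 cells and 97.6 in the E4 cells, a log2 ratio of −0.61 (−0.95 to −0.27), and was detected in 76 and 62 cells. Tekt3, a tektin inside the doublet microtubules, stood at 38.4 and 20.5 CPM and Cfap300, a dynein assembly factor, at 33.5 and 17.3 CPM, both from fewer than 50 UMIs in each library. Dynein assembly factors were lower for 13 of 15 measured members with a median of −0.14, and the transport genes for 32 of 51 with a median of −0.067.

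Of the interferon-induced and MHC genes, the interferon-induced Ifi27, Ifitm3, Bst2 and Ifit3 were lower in the E4 library, and no MHC gene passed 1.5-fold. Only 1 of the 9 measured members was above its E3 level and 8 were below it, the median log2 ratio being −0.31 beside −0.0075 over all genes, and 4 passed 1.5-fold downward against 4.33% of all genes in either direction. Ifi27, an interferon-induced membrane protein gene, had 470 CPM (432 to 510) in the E3 cells and 202 CPM (178 to 229) in the E4 cells, a log2 ratio of −1.22 (−1.434 to −1.002). It was detected in 80 of 109 and 67 of 112 cells, and in 33.5% and 33.6% of astrocytes, which were shallower at medians of 4289.5 and 4187.5 UMIs. The median ependymal cell held 299 CPM in E3 and 99.6 CPM in E4, so the difference was spread over the cells of the library. Ifitm3, which hinders the entry of viruses, stood at 810 and 535 CPM, a log2 ratio of −0.60 (−0.74 to −0.46), with 95 cells detected in each library. Bst2, which tethers budding virus particles, stood at 62.9 and 24.4 CPM in 38 and 22 cells. Ifit3 stood at 31.9 and 11.8 CPM in 22 and 10 cells. By contrast the MHC class I gene H2-D1 stood at 59.7 and 56.7 CPM, and H2-K1 at 114 and 92.1 CPM, with intervals of the log2 ratio that took in 0.

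The Ttr-rich E4 cells carried Ifi27 at 2557 CPM, and without the cells rich in Ttr or 6330403K07Rik the log2 ratio of Ifi27 was −1.65, that of Ifitm3 −0.52 and that of Bst2 −1.43. Without the cells of all 3 kinds Ifitm3 was at −0.45, below 1.5-fold, and Ifit3 had under 50 UMIs. Choroid plexus cells of the same libraries held less of the 3 genes in E4 as well: Ifi27 stood at 1536 and 1012 CPM, Ifitm3 at 273 and 76.6 CPM and Bst2 at 265 and 139 CPM. In astrocytes Ifi27 stood at 111 and 118 CPM and in microglia at 122 and 124 CPM. Bst2 stood at 149 and 148 CPM in microglia, with overlapping intervals. Ifitm3 in astrocytes was 72.6 and 61.2 CPM, and in microglia 46.5 and 49.1 CPM. Ifit3 was higher in E4 microglia, at 7.46 and 14.2 CPM, and stood at 20.3 and 20.9 CPM in astrocytes. In choroid plexus it had 10 UMIs in E3 and 1 in E4. The difference between cell classes was not tested.

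**Figure D3:**
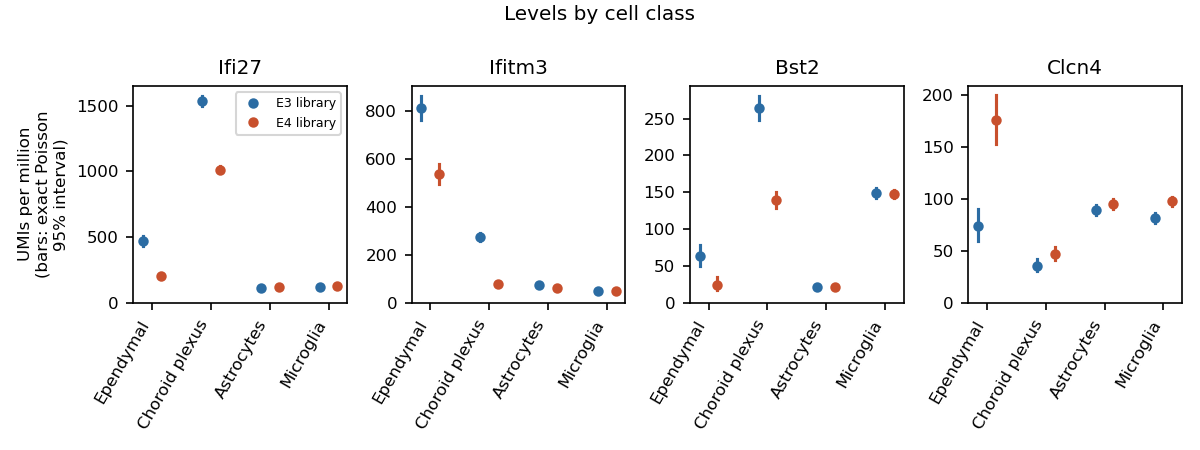
Level of Ifi27, Ifitm3, Bst2 and Clcn4 in CPM (vertical axes start at 0) by cell class and library, with exact Poisson 95% intervals. The first 3 genes are lower in E4 in ependymal and choroid plexus cells, and Clcn4 is higher in E4 ependymal cells, at 175 against 73.6.

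Energy metabolism gave different pictures for mitochondrial and nuclear genes. Of the 13 genes encoded by mitochondrial DNA 11 were higher in the E4 library, the median log2 ratio being 0.25 beside −0.0075 over all genes. The cytochrome oxidase genes mt-Co1, mt-Co2 and mt-Co3 stood at 9731, 8924 and 14830 CPM in E3 and at 13009, 11130 and 18294 CPM in E4. mt-Atp6 of the ATP synthase stood at 16458 and 20559 CPM. The exceptions were mt-Atp8, at 395 and 308 CPM, and mt-Nd6, at 172 and 163 CPM. None of the 13 passed 1.5-fold. The mitochondrial share per cell is the share of these same 13 genes. Its median was 7.73% in E3 and 9.54% in E4, against 5.44% and 5.91% over all barcodes within limits. The cause of the difference was not tested. In astrocytes these genes had a median of −0.010, in choroid plexus of 0.088 and in microglia of 0.070. There 6, 7 and 8 of the 13 genes were higher in E4.

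For nuclear genes of oxidative phosphorylation the direction rested on 2 cells. With all cells, 60 of 83 measured genes were higher in E4 and the median log2 ratio was 0.088. Without the 2 Ttr-rich cells of the E4 library 28 were higher and 55 lower, and the median was −0.056. Cox4i1 stood at 919 and 1017 CPM and Cox8a at 1037 and 1143 CPM with all cells. For the mitochondrially encoded genes the same step left the median at 0.28 with 11 of 13 higher. In astrocytes the median of the nuclear genes was −0.12.

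Glycolysis genes were higher in the E4 library for 13 of 17 measured members, at a median log2 ratio of 0.16 beside −0.0075 over all genes, and none passed 1.5-fold. Gapdh stood at 682 and 778 CPM, Pgk1 at 384 and 441 CPM and the glucose transporter gene Slc2a1 at 355 and 395 CPM. The pyruvate kinase gene Pkm was level at 429 and 430 CPM. Of the lactate dehydrogenase subunits, named after their values were seen, Ldhb stood at 267 and 338 CPM and Ldha at 70.3 and 69.2 CPM. Without the Ttr-rich cells 11 of 17 were higher with a median of 0.12, and without the cell rich in 6330403K07Rik as well 10 of 17 with a median of 0.090. The sum of the list was 3595 and 4041 CPM in ependymal cells, about the level of microglia (3174 and 3217 CPM). It was below that of choroid plexus (7024 and 7234 CPM) and of astrocytes (8084 and 8275 CPM). Of the astrocyte sum, 2785 and 2854 CPM were Aldoc, a gene used to choose that class. Dld, the dihydrolipoamide dehydrogenase subunit of the pyruvate dehydrogenase complex, was the single gene of the tricarboxylic acid cycle list that passed, at 44.1 and 79.5 CPM in 37 and 58 cells.

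**Figure D4:**
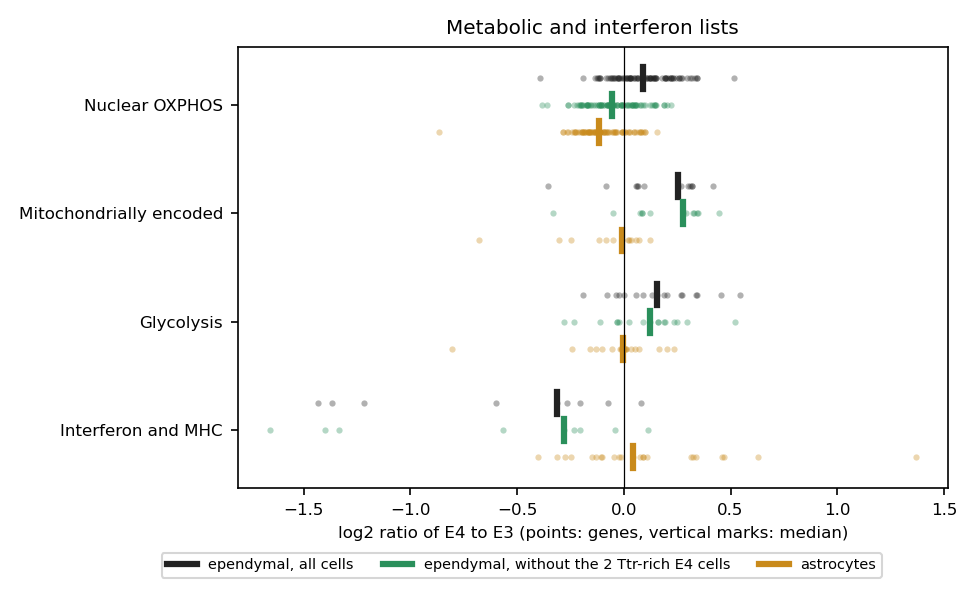
Log2 ratio of E4 to E3 (horizontal axis) of each measured gene of 4 lists as points, with the median as a vertical mark, in all ependymal cells, in ependymal cells without the 2 Ttr-rich E4 cells, and in astrocytes. The median of nuclear oxidative phosphorylation genes moves from 0.088 to −0.056 when the 2 cells are left out, while that of mitochondrially encoded genes stays between 0.25 and 0.28.

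Lipid carriers were represented mainly by Dbi, the acyl-CoA binding protein gene, at 15321 and 15187 CPM, the clusterin gene Clu at 3064 and 2827 CPM, and Pltp, the phospholipid transfer protein gene, at 1676 and 1614 CPM. Few UMIs were counted under Apoe in ependymal cells, 52 in E3 (42.5 CPM, 31.7 to 55.7) and 69 in E4 (54.3 CPM, 42.2 to 68.7), a log2 ratio of 0.35 (−0.19 to 0.90). How many human APOE reads were missed was not measured, so these are levels of counted reads and not of the human transcript, in astrocytes too. Apoe was detected in 32 of 109 cells (29.4%) and 39 of 112 (34.8%), against 10.6% and 11.7% of microglia at median depths of 3884 and 4421.5 UMIs and 60.5% and 68.6% of astrocytes. At 2000 UMIs per cell the ependymal shares were 7.34% and 10.7%. In CPM the ependymal level lay near that of microglia, 33.9 and 38.1 CPM, and below the 226 and 281 CPM of astrocytes. Of 20 measured lipid genes 10 were higher and 10 lower, and Lrp8, an apolipoprotein E receptor gene, passed 1.5-fold downward, from 213 CPM in the E3 cells to 142 CPM in the E4 cells.

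The list of genes secreted into the fluid or the extracellular space also held metallothionein genes, whose proteins act mainly inside cells. Of its 24 measured members 16 were higher in E4, at a median log2 ratio of 0.14. Rarres2 (chemerin) stood at 3744 and 3708 CPM, and the metallothionein genes Mt1 at 7380 and 6603 CPM and Mt3 at 5843 and 6749 CPM. Sfrp1, which binds Wnt ligands, stood at 30.2 and 69.2 CPM in 19 and 43 cells, and its log2 ratio of 1.20 was 1.66 without the cells that stood apart in any of the ways described. Enpp2 (autotaxin) stood at 55.6 and 98.4 CPM and passed 1.5-fold with all cells, with a log2 ratio of 0.82 that was 0.23 without the cells rich in Ttr or 6330403K07Rik.

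The water and ion transport list was level, with 11 of 21 higher and a median of 0.012. Car2, carbonic anhydrase 2, stood at 21.3 and 59.8 CPM, and its log2 ratio of 1.49 was 0.61 without the cells rich in Ttr or 6330403K07Rik. Among junction genes Gja1 (connexin 43) stood at 522 and 531 CPM, while Gjb6 (connexin 30), more typical of astrocytes, stood at 31.1 and 12.6 CPM in 15 and 11 cells.

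Outside the lists, Clcn4, a gene for a chloride and proton exchanger of endosomes, was the highest ratio among genes with at least 200 UMIs apart from 6330403K07Rik. Its 73.6 CPM (59.2 to 90.4) in the E3 cells and 175 CPM (153 to 200) in the E4 cells were 2.39-fold apart, and it was detected in 42 of 109 and 80 of 112 cells. At 2000 UMIs per cell the shares were 11.0% and 26.8%, and 27.5% and 35.5% of microglia had a UMI of it at their own depths. Without the cells that stood apart its log2 ratio was 1.37. In other classes the levels of the libraries were closer, at 89.3 and 95.0 CPM in astrocytes, 35.7 and 47.1 CPM in choroid plexus and 81.7 and 97.4 CPM in microglia. Clcn4 lies at chr7:7282309-7300851 (GRCm38, minus strand), 12.4 Mb from Apoe on the same chromosome.

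Ucma, a secreted cartilage matrix protein gene, stood at 73.6 and 164 CPM, in 33 and 44 cells, with at most 2.97 CPM in astrocytes. The smooth muscle actin gene Acta2 stood at 234 and 386 CPM in 49 and 71 cells, and Tagln at 40.9 and 107 CPM in 22 and 24 cells, where 37.5% of the E4 UMIs of Tagln came from 1 cell. Of the defining mural markers, Vtn had 9 and 5 UMIs in all and Rgs5 1 and 22, of which 13 lay in 1 E4 cell. The mural list summed to 353 and 619 CPM. In astrocytes Acta2 stood at 1.22 and 22.6 CPM, and 10 of 10 mural genes were higher in E4. In microglia Acta2 stood at 12.2 and 10.2 CPM, and 6 of 9 measured mural genes were higher. Choroid plexus held 1.52 and 0.642 CPM of Acta2. It was detected in 45.0% and 63.4% of ependymal cells, and in 0.602% and 1.19% of astrocytes. The part of mural RNA in the levels of Acta2 and Tagln was not tested. The log2 ratio of Acta2 was 0.72 with all cells, 0.54 without the cells rich in astrocyte genes and 0.56 without the cells of all 3 kinds. Also above 1.5-fold in E4 were Fam126b (62.1 and 102 CPM), Exoc4 of the exocyst (62.1 and 98.4 CPM), the actin crosslinker gene Actn1 (70.3 and 111 CPM), Crim1 (67.0 and 104 CPM) and Tgoln1 of the trans-Golgi network (89.9 and 139 CPM). Without the cells of all 3 kinds Exoc4 was at 0.55, Crim1 at 0.48 and Tgoln1 at 0.56 on the log2 scale, each below 1.5-fold.

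On the lower side stood Wls, the carrier protein needed to secrete Wnt ligands, at 401 and 249 CPM, and Clec3b (tetranectin) at 198 and 123 CPM in 73 and 57 cells. Msx1, a homeobox gene, stood at 148 and 96.0 CPM, P4ha1 of collagen hydroxylation at 127 and 81.0 CPM, the myo-inositol transporter gene Slc5a3 at 125 and 79.5 CPM, Llph at 119 and 77.1 CPM and Rab11fip2 at 104 and 65.3 CPM. Without the cells of all 3 kinds Slc5a3 was at −0.50 and Llph at −0.54 on the log2 scale, both short of 1.5-fold. Bc1, a short neuronal RNA, stood at 129 and 49.6 CPM and was also lower in E4 astrocytes, at 782 and 293 CPM. Haemoglobin Hbb-bs stood at 46.6 and 11.0 CPM, and in astrocytes at 2155 and 1124 CPM. Genes that overlap ribosomal RNA repeats, Gm42418 at 22606 and 10352 CPM and Lars2 at 1260 and 529 CPM, were lower in E4 in all 4 classes. Bc1, haemoglobin and these genes thus differed between the libraries in other cells too, and their part in the ependymal ratios of further genes was not tested.

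Stress and activation genes gave mixed counts. Of 19 measured immediate early genes 11 were higher and 8 lower, with Jund at 496 and 557 CPM and Jun at 190 and 242 CPM. Btg2 stood at 77.6 and 33.0 CPM, but most of its UMIs lay in the E3 cells with Sspo, and without cells of that kind its log2 ratio was 1.17 instead of −1.23. Ier2 (39.2 and 16.5 CPM) and Klf2 (55.6 and 36.2 CPM) also passed 1.5-fold. Without the cells with Sspo the log2 ratio of Klf2 was −0.31 instead of −0.62, without the cells of all 3 kinds it was −0.082, and Ier2 then had under 50 UMIs. The chaperone genes Hspa1a and Hspa1b, which are induced by heat, stood at 57.2 and 70.3 CPM in E3 and at 27.5 and 40.9 CPM in E4, and Hspa1a was at −0.58 on the log2 scale without the cells of all 3 kinds, just below 1.5-fold, whereas Hsp90aa1 was level at 9113 and 9425 CPM.

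Transcription factors and cofactors that mark brain regions differed between the libraries in both directions. Hopx stood at 184 and 102 CPM, Zic1 at 80.9 and 51.9, Zic4 at 82.6 and 47.2, Pax6 at 56.4 and 28.3, Irx3 at 45.0 and 28.3 and Zic2 at 37.6 and 22.0 CPM in E3 and E4. Six3, in contrast, stood at 48.2 and 99.1 CPM and Lhx2 at 27.0 and 58.2 CPM. These 8 passed 1.5-fold of 21 measured, 2 upward and 6 downward, against 4.33% of all genes. Several of these rested on a few cells. Without the cells with Sspo the log2 ratio of Pax6 was −0.50 instead of −0.99 and that of Zic2 −0.38 instead of −0.77, both then below 1.5-fold. That of Six3 was 1.04 with all cells and 0.57 without the cells of all 3 kinds. Without the cells rich in Ttr or 6330403K07Rik Zic1 was at −0.58, as was Irx3, which was at −0.39 with each cell weighted alike. Hopx, Zic4 and Lhx2 stayed past 1.5-fold under these settings. The broadly expressed Sox9 and Sox2 stood at 822 and 930 CPM and at 409 and 472 CPM.

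Ependymal cells also varied within each library. The variance of each gene beyond the counting noise set by cell depth was ranked in each library, and 27 genes were within the leading 50 of both (54% of each list). The leading genes of both were Malat1, Gm42418, Cst3, mt-Co3, mt-Atp6, Ptn, Nnat, Slc1a2, Dbi and mt-Co1. Malat1, a nuclear RNA, ran to 1697 UMIs per E3 cell around a median of 204 and to 1580 around 157 in E4. The 21 pairs of mitochondrial genes among the leading genes correlated across cells with r of 0.63 to 0.94 in E3 and 0.60 to 0.95 in E4. Aldoc, Slc1a2 and Mfge8 varied together as well, r for Aldoc with Slc1a2 being 0.70 in E3 and 0.74 in E4. These correlations are over 109 and 112 cells that share a library, and are given as a description.

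A further axis was found after the values were seen and runs through Wls. Across E3 cells Wls correlated with Zic4 at 0.54, Otx2 at 0.53, Zic1 at 0.48 and Lrp8 at 0.44, and across E4 cells at 0.51, 0.33, 0.40 and 0.67. Sparc, Mt3 and S100a6 varied against Wls in both libraries, at −0.50, −0.44 and −0.38 in E3 and −0.33, −0.38 and −0.30 in E4. Foxj1 and Ccdc153 were near 0, between −0.077 and 0.16. Cells with a UMI of Zic1, Zic4 or Otx2 were 57 of 109 in E3 (52.3%) and 55 of 112 in E4 (49.1%), and at 2000 UMIs per cell 29.4% and 20.5%. These cells had more UMIs, with a median of 10004 and 10379 against 6886 and 7486 in the remaining cells.

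**Figure D5:**
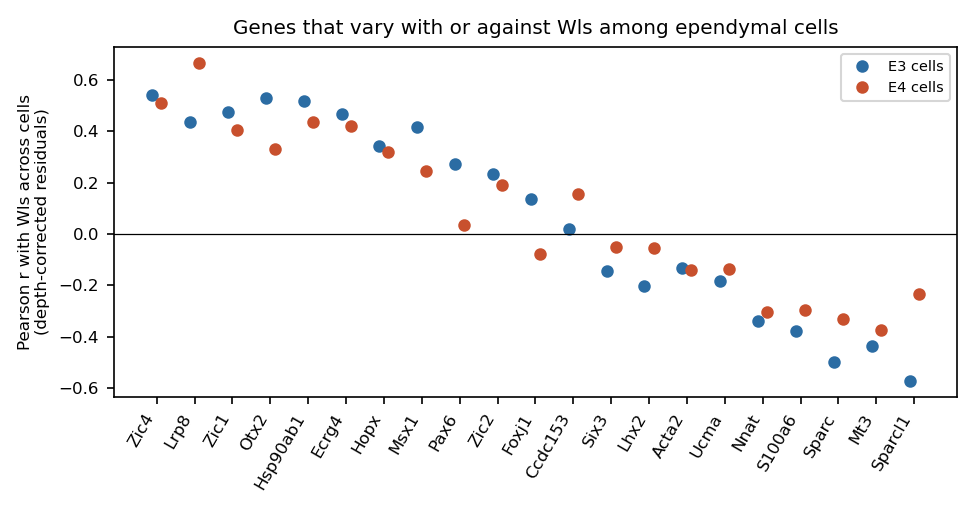
Pearson r of each gene with Wls across ependymal cells of the E3 library (109 cells) and the E4 library (112 cells), after correction for cell depth (vertical axis). Zic4, Lrp8, Zic1 and Otx2 are positive and Sparc, Mt3 and Sparcl1 negative in both libraries.

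Library differences were then set out on both sides of a split by Zic1, Zic4 and Otx2, whose own levels the split fixes. Zic1 and Zic4 were themselves lower in E4, and Wls was taken up for its correlation with them, so the ratios on each side partly follow from the split and are given as a description. In cells with these genes Wls stood at 604 and 322 CPM, a log2 ratio of −0.91 (−1.14 to −0.68), and in cells without them at 118 and 145 CPM (0.30, −0.21 to 0.81). Ratios of opposite sign were also found for Lrp8 (−0.80 and 0.33), Ecrg4 (−0.58 and 0.44), Hsp90ab1 (−0.14 and 0.096) and the selecting gene Foxj1 (−0.17 and 0.28). The interval took in 0 for Lrp8 in cells without the genes (−0.35 to 1.02) and for Foxj1 in cells with them (−0.38 to 0.039). Hopx was lower in E4 on both sides, at −0.76 and −1.04. The log2 ratio of Clcn4 was 1.31 in cells with and 1.20 in cells without these genes, and that of Six3 was 0.88 and 1.29. Ucma had ratios of 2.50 and 0.78, and in E3 it stood at 16.8 CPM in cells with the genes and 153 CPM in cells without. The differences between the sides were not tested.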

How the data were processed

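Per the labels and the study's methods, 1 library of 10x Chromium v3 3′ tags was made per genotype from the pooled hemispheres of 3 mice. The authors deposited UMI counts per gene and barcode for 32285 genes, from Cell Ranger 6.1.2 (E3) and 6.1.1 (E4) per the file headers, on mm10 per the submitters' processing notes. The annotation release is not given in the sources used here. Library totals were 56415229 (E3) and 71625170 (E4) UMIs.

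The counts were used as deposited, without further normalization other than CPM of the summed ependymal cells. CPM intervals were exact Poisson, shares exact binomial (Clopper-Pearson), and log2 ratios came from the exact binomial split of the UMIs, all at 95% (numpy 2.4.6, scipy 1.17.1, pandas 2.3.3, Python 3.11.15, and matplotlib 3.10.9 for figures). The code was tested on simulated data. No doublet caller was run: the UMI maximum and the limits on markers of other cell types stood in its place. Genes with under 50 UMIs over both libraries were left out of counts. Thinning drew 2000 UMIs per cell. Correlations used Pearson residuals from a Poisson expectation with cell depth. Astrocytes and microglia were barcodes within the same limits with at least 8 UMIs of 5 (Aldoc, Aqp4, Gja1, Aldh1l1, Slc1a2) or 3 (C1qa, C1qb, C1qc) markers and few of the other classes. Positions of genes came from a GENCODE annotation of GRCm38, the build also called mm10.

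The members, gene lists and tests were chosen with earlier results of these data known. Named were the selecting genes, Apoe, up to 4 most abundant members per list, list members 1.5-fold apart with an interval that left out 1, the 8 highest and 8 lowest ratios outside lists among genes with at least 200 UMIs, and the 10 most variable genes of both libraries, apart from a few genes that are not reported here. Alternatives covered the marker sum, the UMI and mitochondrial limits, the limits on other cell types, the totals, thinning, the weight of cells, the UMI minimum and the fold.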

Additional observations from a re-analysis of the deposited data

Results flagged for a closer look

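The median log2 ratio of E4 to E3 of dynein assembly factors was −0.14 in ependymal cells and 0.075 in astrocytes, which are opposite directions. The difference was not tested.

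The median for nuclear oxidative phosphorylation genes was 0.088 in ependymal cells, whereas it was −0.12 in astrocytes, −0.049 in choroid plexus cells and −0.11 in microglia. The difference was not tested, and without the 2 Ttr-rich E4 cells the ependymal median was −0.056.

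Barcodes over 50000 UMIs, which the comparisons did not use, included 23 in E3 and 47 in E4 with at least 8 UMIs of the 4 selecting genes. Of these, 13 and 32 had no UMI of Ccdc153 or Tmem212, and 9 and 13 had at least 8 UMIs of this pair. In the latter, motile cilia genes other than the selecting genes stood at 30068 and 28586 CPM.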

How the results depend on the processing

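No paired analysis was possible because there was 1 library per genotype. With no limit on markers of other cell types, 216 E3 and 241 E4 cells passed (2.42% and 2.20%), 447 genes were at least 1.5-fold higher and 475 lower in E4, the motile cilia median was −0.30, and the ratios of Acta2 (−0.28), Ucma (−0.46) and Msx1 (0.11) took the other sign. With limits of 0 UMIs on these markers except Cldn5, only 15 and 13 cells remained (0.168% and 0.119%), with 50 genes higher and 51 lower, medians of 0.32 for motile cilia, 0.69 for mitochondrially encoded and 0.62 for glycolysis genes, and Ifitm3 at 0.14. From 4000 UMIs upward the share of ependymal cells was 1.91% and 1.46%. From 2000 to 20000 UMIs the motile cilia median was −0.030 and 6330403K07Rik was −0.44. With a marker sum of at least 15 the median of nuclear oxidative phosphorylation genes was −0.060. With cells thinned to 2000 UMIs 65 genes were higher and 49 lower and the motile cilia median was −0.036. With each cell weighted alike 377 genes were higher and 415 lower. Counts of genes higher and lower were 640 and 780 from 20 UMIs, 14 and 20 from 200 UMIs, 1706 and 1992 with no minimum other than 1 UMI in each library, 873 and 971 at a smaller fold limit, and 31 and 43 at 2-fold.

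The settings that leave out kinds of cell were added after seeing the data. Without the cells rich in Ttr or 6330403K07Rik the medians were −0.026 for motile cilia and −0.074 for nuclear oxidative phosphorylation genes, and 6330403K07Rik was −0.20. Without cells with Sspo Btg2 was 1.17. Without the cells rich in astrocyte genes the motile cilia median was −0.11 and 6330403K07Rik was −0.26. Without all of these cells the nuclear oxidative phosphorylation median was −0.070 and 6330403K07Rik −0.15. Without the cell highest in each gene 6330403K07Rik was −0.15. The causes were not tested. Genes with under 50 UMIs, or lists with under 6 measured members, under a setting gave no value there. Ifi27, Bst2, Clcn4, Wls and Kif9 kept their direction under every setting that gave a value. When haemoglobin, mitochondrial and rRNA-overlapping genes were taken out of the totals, all 172 named genes moved by less than their counting interval. With 1 library per genotype, depth limits counting precision only, and the spread between mice is unknown.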
